A study of Mus musculus with 15 samples.

Results

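Left-ventricular cardiomyocytes of mice on day 5 after a whole-body proton exposure were set against cardiomyocytes of sham-treated mice. The members were chosen by the sample titles: 3 arrays titled day 5 after protons and 3 sham arrays, which makes 6 of the 15 arrays of the series. The exposed mice had received 90 cGy of 1 GeV protons (linear energy transfer 0.22 keV per µm, 0.17 Gy per min). All groups were male C57Bl/6NT mice of 8 to 9 months, and the labels name no genetic change. Cells were freed by collagenase through the aorta and selected on a calcium gradient. By the labels, a few inflammatory or endothelial cells may be left in such a preparation. The other 9 arrays came from days 1, 3, 12 and 26 after the same exposure.

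No sham array of day 5 was part of the comparison: 2 sham arrays came from day 1 (sham replicates 1 and 2) and 1 from day 3 (sham replicate 3), so time since handling and exposure cannot be told apart here. Days are given as in the titles; the series' design text has 1, 3, 7, 14 and 28 instead. The labels do not say whether arrays of a group came from separate mice, so a p-value here covers the spread of these arrays alone, which may be technical. Day 5 replicates 1 and 2 were close to identical. Over the genes tested, their log2 values differed with an SD of 0.0768, against 0.222 for the next closest of the 105 pairs of arrays and 0.527 for the farthest. They were averaged and counted as 1 sample, which leaves n = 2 at day 5 beside n = 3 sham.

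Small nucleolar RNAs (snoRNAs) are short nuclear RNAs that guide chemical changes of other RNAs. H/ACA box snoRNAs guide the conversion of uridine to pseudouridine, C/D box snoRNAs guide methylation of the ribose, and the related small Cajal body RNAs act on the RNAs of the spliceosome. In mammals most of them are cut from introns of longer host transcripts, and proteins such as dyskerin, Nop10 and Nhp2 stabilise those of the H/ACA class. The endoplasmic reticulum of the cardiomyocyte folds secreted and membrane proteins and is continuous with its calcium store, and chaperone genes there are induced through shared promoter elements when unfolded protein accumulates.

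The label was checked against defining markers of the cell type. The 12 cardiomyocyte marker genes were all kept, with a mean log2 signal of 11.84 to 11.87 on the sham arrays and 11.78 to 11.88 on the day 5 arrays. Myh6, the main myosin heavy chain of the adult mouse ventricle, lay at 11.86, 11.93 and 11.93 in the sham arrays and at 11.85, 11.84 and 11.88 at day 5. Array medians ran from 4.90 to 5.16 over the 15 arrays. Of 19937 genes with a probe set of a single symbol, 12102 had a mean log2 signal above 5.00 and were tested with limma.

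At day 5, 5 small nuclear and nucleolar RNAs and 1 protein-coding gene were higher than in sham cells past the threshold. Of the 12102 genes, 6 passed a Benjamini-Hochberg adjusted p of 0.05 as higher at day 5 (0.0496% of those tested) and 0 passed as lower (0.0%). At an unadjusted p under 0.05, 510 were higher (4.21%) and 578 lower (4.78%), and the median difference of all genes was 0.01 on the log2 scale. In 1845 genes all 3 day 5 arrays lay above all 3 sham arrays (15.2%), and in 1779 they lay below (14.7%). The counts at an unadjusted p under 0.05 were 265 higher and 358 lower without day 5 replicate 3, and 416 higher and 396 lower without sham replicate 3; list counts under these 2 settings are read beside them. The 6 genes were the Cajal body RNA Scarna13, the H/ACA snoRNAs Snora16a, Snora3 and Snora73b, the U12 small nuclear RNA gene Rnu12 and the protein-coding gene Tmem109.

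Scarna13 (chr12:105031075-105031349 of GRCm38.p6), a small Cajal body RNA, had log2 signals of 7.59, 8.27 and 7.54 in the sham arrays and of 9.77, 9.76 and 9.51 at day 5. The lowest day 5 array lay above the highest sham array by more than either group's own range. It rose by 1.84 on the log2 scale (SE 0.19), a 3.57-fold difference, with an adjusted p of 0.00669. Its span lies within that of the non-coding gene Snhg10. The other Cajal body RNAs on the array overlapped with sham: Scarna17 differed by 0.10 (SE 0.19) and Scarna8, too dim to test, by -0.11.

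Snora3 (chr7:109520132-109520251), an H/ACA snoRNA within the ribosomal protein gene Rpl27a, was at 8.61, 8.50 and 8.24 in sham cells and at 10.80, 10.81 and 10.31 at day 5. It rose 4.31-fold, or by 2.11 on the log2 scale (SE 0.29, adjusted p = 0.0198). This was the largest difference among the 6 genes, and the second probe set for Snora3 differed by 1.37 in the same direction. The signal of its host Rpl27a was 0.23 lower at day 5 on the log2 scale (SE 0.09, adjusted p = 0.512). That value is from the brightest of 9 Rpl27a probe sets. The 9 differed by -0.0015 to -0.62, some with day 5 arrays all below sham and others with overlap. The signals of the snoRNA and of its host thus lay on opposite sides of sham.

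Snora16a (chr4:132309465-132309600) and Snora73b (chr4:132352322-132352526) are H/ACA snoRNAs of chromosome 4, in the non-coding hosts Snhg12 and Snhg3. Snora16a was at 6.80, 6.63 and 6.24 in sham cells and at 8.21, 8.25 and 7.77 at day 5, a rise of 1.44 (SE 0.19). Snora73b was at 7.03, 6.92 and 6.38 in sham cells and at 8.30, 8.31 and 8.04 at day 5, a rise of 1.40 (SE 0.19). Each had an adjusted p of 0.0198, and in neither did the groups overlap. Snora44, which lies beside Snora16a in Snhg12, was 1.56 higher (SE 0.27) and Snora73a, beside Snora73b in Snhg3, was 0.86 higher (SE 0.16); both groups of arrays were also apart, but the adjusted p was 0.102 and 0.173. The hosts Snhg10, Snhg12 and Snhg3 had no probe set of their own in the set used here.

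Rnu12 (chr15:83149645-83149794) encodes U12, an RNA of the minor spliceosome, which removes a rare class of introns. Its log2 signal was 6.38, 6.50 and 5.97 in sham cells and 7.84, 7.82 and 7.59 at day 5, a rise of 1.43 (SE 0.19, adjusted p = 0.0198) with no overlap. All 7 protein genes of the minor spliceosome on the list were tested, with a median difference of -0.09, and Snrnp48 was the one with an unadjusted p under 0.05 (0.24, SE 0.11), which none had without day 5 replicate 3 or without sham replicate 3. Rn7sk, the RNA that holds back the elongation factor P-TEFb, differed by 0.09 (SE 0.04), and Rpph1, the RNA of ribonuclease P, by 0.30 (SE 0.14). Rmrp, the RNA of ribonuclease MRP, differed by 0.38 (SE 0.17), with overlapping groups.

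Tmem109 (chromosome 19), which encodes a membrane protein of the endoplasmic reticulum and nuclear envelope, was the one protein-coding gene past the threshold. Its signals were 8.63, 8.84 and 8.72 in sham cells and 9.38, 9.40 and 9.36 at day 5. The day 5 arrays spanned less than the sham arrays, and Tmem109 rose 1.56-fold, or by 0.64 on the log2 scale (SE 0.09, adjusted p = 0.0198). With day 5 replicate 3 left out, 0 of the 12102 genes passed in limma (623 had an unadjusted p under 0.05, and the smallest adjusted p was 0.0645). That fit has 1 day 5 sample, which is assumed to vary like the other groups. Leaving out either day 26 array or sham replicate 1 left 3 genes, and leaving out sham replicate 2 or sham replicate 3 kept 3 of the 6 and added 1 (Snora44) and 2 (Malat1 and Mir665).

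**Figure D1:**
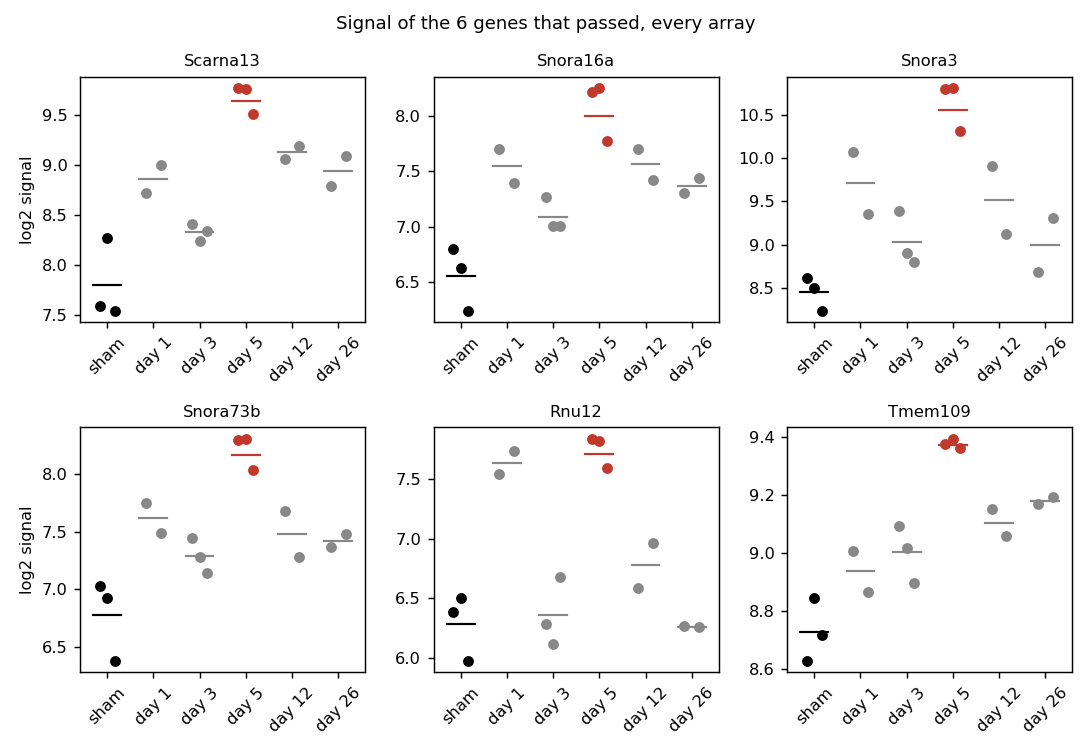
Log2 signal (y axis) of the 6 genes that passed at day 5 against sham, in each of the 15 arrays by group (x axis); black points are sham arrays, red points day 5, grey points the other proton days, and lines are group means, with the near-identical day 5 replicates 1 and 2 averaged first. The 3 day 5 arrays lie above the 3 sham arrays in all 6 panels; for Rnu12 the day 1 arrays reach up to 7.73, beside 7.59 to 7.84 at day 5.

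The H/ACA snoRNAs as a list stood above sham beyond the genes that passed. The array carries 20 of them, and 18 were kept. In 16 of the 18 the unadjusted p was under 0.05 in the higher direction and in 0 in the lower, beside 4.21% and 4.78% of all genes. In 15 of the 18 the day 5 arrays all lay above the sham arrays, beside 15.2% of all genes. The median difference was 0.66 among those kept, with a range from 0.27 to 2.11, and all 20 on the array were above 0, with the day 5 arrays all above sham in 17. Snora20 was kept only through its day 5 signal, with a mean of 4.99 over the other 12 arrays. The members were chosen with earlier results of these data known, so the count is a description. The mean log2 signal of the 20 genes was 6.55 to 6.86 in the sham arrays and 7.41 to 7.64 at day 5, and the other proton days lay at 6.77 to 7.29, with 2 day 3 arrays (6.77 and 6.85) within the sham range. Without day 5 replicate 3, the count at an unadjusted p under 0.05 was 13 of 18, and without sham replicate 3 it was 11 of 18.

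Among the other H/ACA snoRNAs were members of 3 protein-coding hosts. Snora31, in the translationally controlled protein gene Tpt1, was 0.62 higher (SE 0.13), Snora23, in the importin gene Ipo7, was 0.54 higher (SE 0.12), and Snora30, in the chromatin remodeller gene Srcap, was 0.51 higher (SE 0.13). Their adjusted p lay between 0.277 and 0.378, so none passed. The hosts differed by -0.13 (Tpt1), -0.05 (Ipo7) and 0.18 (Srcap), all smaller in size than the difference of the snoRNA they hold.

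C/D box snoRNAs showed the same direction at a smaller size. Of 31 on the array 20 were kept. An unadjusted p under 0.05 was found in 13 of these as higher and 0 as lower, beside 4.21% and 4.78% of all genes. None passed the adjusted threshold. The median difference was 0.50, the range 0.16 to 0.78, and all 31 on the array lay above 0. The mean log2 signal of the 31 was 5.72 to 5.97 in the sham arrays and 6.13 to 6.46 at day 5. Later days lay within or just below the day 5 range, at 6.27 and 6.09 on day 12 and 6.13 and 6.33 on day 26. Days 1 and 3 lay at 5.71 to 6.01. Snord104, a C/D snoRNA of chromosome 11, had the smallest p: 10.01, 9.83 and 9.82 in sham cells and 10.60, 10.62 and 10.42 at day 5, a difference of 0.63 (SE 0.13, adjusted p = 0.269). Its groups did not overlap. Without sham replicate 3 the count at an unadjusted p under 0.05 was 7 of 20 and without day 5 replicate 3 it was 11 of 20, while with all 15 arrays as separate samples it was 20 of 20.

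The long non-coding snoRNA hosts lay above sham in 4 of the 6 on the array, beside 2557 of all 19937 genes. At an unadjusted p under 0.05, 4.21% of all genes tested were higher. The 5 kept had a median difference of 0.52, with an unadjusted p under 0.05 in 4, and in 1 without day 5 replicate 3. Snhg17 overlapped with sham (0.21, SE 0.21), and Snhg11, too dim to test, differed by -0.33 with overlapping groups. Gas5, a host of many C/D snoRNAs, was at 9.04, 9.23 and 8.88 in sham cells and 9.73, 9.73 and 9.41 at day 5, a difference of 0.52 (SE 0.14, adjusted p = 0.378), and Snord47 within it differed by 0.65 (SE 0.25). Of the 4 Gas5 probe sets, 2 had day 5 arrays all above sham (0.52 and 0.72) and 2 overlapped (0.13 and -0.01). Snhg5, Snhg15 and Snhg16 differed by 0.41, 0.55 and 0.65, and none passed. Snord15b, in the ribosomal protein gene Rps3, differed by 0.63 (SE 0.19), while Rps3 differed by 0.06 (SE 0.08).

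The proteins that bind these RNAs did not share that direction. Their counts are read beside 4.21% higher and 4.78% lower of all genes. Of 17 core snoRNA particle proteins kept, 2 had an unadjusted p under 0.05 as higher and 3 as lower, with a median of -0.01, and without day 5 replicate 3 the counts were 0 and 4. Nhp2 and Nop10, both of the H/ACA particle, were 0.30 (SE 0.12) and 0.27 (SE 0.12) lower, and Ruvbl1, an assembly helicase, was 0.38 lower (SE 0.11). Snu13, which binds the C/D box, was 0.18 higher (SE 0.08) by the brightest of its 4 probe sets. The others differed by 0.11, 0.096 and -0.051, with overlapping groups. The adjusted p of Nhp2, Nop10, Ruvbl1 and Snu13 lay between 0.422 and 0.544.

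**Figure D2:**
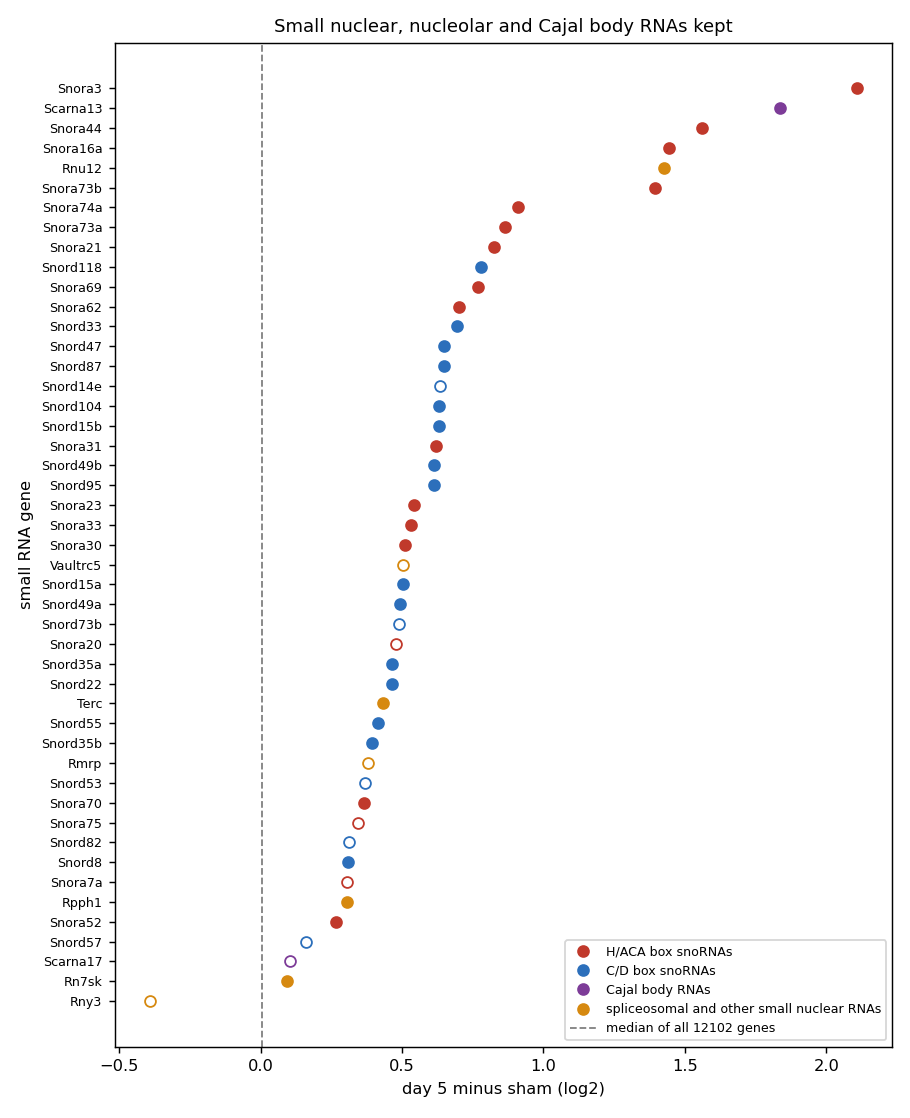
Day 5 minus sham difference (x axis, log2) of each of the 47 small RNA genes kept (y axis), coloured by class; filled points are genes whose 3 day 5 arrays all lay above the 3 sham arrays, open points the others, and the dashed line is the median of the 12102 genes tested. Of the points, 1 lies below 0, Rny3 at -0.39, and Snora3 lies farthest to the right at 2.11.

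MicroRNA genes were mostly too dim to test: 69 of 300 on the array were kept, with a median difference of 0.10, 5 with an unadjusted p under 0.05 as higher (beside 4.21% of all genes) and 0 as lower. The counts were 3 and 1 without day 5 replicate 3, with a median of 0.04, and Mir370 was kept only through its day 5 signal. Mir665, of the imprinted cluster on chromosome 12, had the smallest p: 5.26, 5.42 and 5.89 in sham cells and 6.60, 6.65 and 6.41 at day 5, a difference of 0.99 (SE 0.19, adjusted p = 0.167) without overlap. Mir504, Mir568, Mir195a and Mir505 differed by 0.47, 0.62, 0.53 and 0.47. The mature RNAs that RefSeq (GRCm38.p6) gives for Mir665, and the 5p arm of Mir195a, a heart microRNA of the miR-15 family, are shown with the seed, bases 2 to 8, in capitals; they share no seed.
mmu-miR-665-5p: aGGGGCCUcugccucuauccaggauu
mmu-miR-665-3p: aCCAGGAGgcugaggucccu
mmu-miR-195a-5p: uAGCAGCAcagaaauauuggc
These probe sets cannot tell a precursor from the mature RNA.

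Chaperones of the endoplasmic reticulum lay mostly above sham at day 5. Of 28 chaperones and cofactors on the array 27 were kept. At an unadjusted p under 0.05, 15 were higher and 0 lower, beside 4.21% and 4.78% of all genes. In 19 the day 5 arrays all lay above the sham arrays and in 1 below, beside 15.2% and 14.7% of all genes. The median difference was 0.27. None passed the adjusted threshold. The mean log2 signal of the 28 was 7.52 to 7.61 in the sham arrays and 7.82 to 7.84 at day 5, while the other proton days lay at 7.66 to 8.02. Without day 5 replicate 3 the count was 9 of 27, and without sham replicate 3 it was 10 of 27.

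Hsp90b1 (GRP94), the HSP90 of the endoplasmic reticulum, was at 9.21, 9.53 and 9.15 in sham cells and at 9.95, 9.96 and 9.86 at day 5, a difference of 0.61 (SE 0.13, adjusted p = 0.269). Hspa5 (BiP), the main HSP70 chaperone there and a sensor of unfolded protein, was at 10.18, 10.28 and 10.04 in sham cells and at 10.56, 10.55 and 10.53 at day 5, a difference of 0.38 (SE 0.09, adjusted p = 0.378). In both genes the groups were apart, and the day 5 arrays were closer to each other than the sham arrays were. Sil1, the nucleotide exchange factor of BiP, differed by 0.39 (SE 0.11) and Sdf2, a luminal cofactor of chaperones, by 0.34 (SE 0.10).

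The promoters of 4 chaperone or isomerase genes are shown because they carry an element known for the induction of this class of genes. The endoplasmic reticulum stress element, ERSE, reads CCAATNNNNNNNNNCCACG and was searched on both strands in the 250 bases before the RefSeq start (GRCm38.p6). It was found for 6 of the 24 chaperone genes with a promoter in the set (25.0%). Of the disulfide isomerase genes 2 of 17 had it (11.8%), and of the degradation genes 2 of 19 (10.5%). It was found for 0 of 24 unfolded protein response sensors and PERK targets and for 0 of 21 translocon genes. Over all genes it was found for 35 of 27025 (0.13%), and over all promoters in 37 of 32851 (0.113%). The related ERSE-II, ATTGGNCCACG, whose letters can overlap with the end of an ERSE, was found in 10 of all promoters (0.0304%), for 1 of the 19 degradation genes (5.26%) and for 0 of the genes of the other 4 lists. The matches are in capitals, 5′ to 3′ on the strand of the gene.
Hspa5, chr2:34771840-34772089, plus strand: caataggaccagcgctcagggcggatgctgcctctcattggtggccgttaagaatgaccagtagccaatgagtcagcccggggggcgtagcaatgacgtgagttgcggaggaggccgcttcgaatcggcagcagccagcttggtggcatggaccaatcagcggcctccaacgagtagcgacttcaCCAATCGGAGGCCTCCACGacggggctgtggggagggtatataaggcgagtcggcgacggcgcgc
Hsp90b1, chr10:86705445-86705694, minus strand: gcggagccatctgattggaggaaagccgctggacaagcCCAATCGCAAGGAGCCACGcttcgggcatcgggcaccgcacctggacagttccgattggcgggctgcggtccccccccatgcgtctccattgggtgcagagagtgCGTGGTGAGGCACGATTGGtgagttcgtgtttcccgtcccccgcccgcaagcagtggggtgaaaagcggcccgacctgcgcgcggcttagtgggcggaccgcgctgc
Dnajc3, chr14:118937682-118937931, plus strand: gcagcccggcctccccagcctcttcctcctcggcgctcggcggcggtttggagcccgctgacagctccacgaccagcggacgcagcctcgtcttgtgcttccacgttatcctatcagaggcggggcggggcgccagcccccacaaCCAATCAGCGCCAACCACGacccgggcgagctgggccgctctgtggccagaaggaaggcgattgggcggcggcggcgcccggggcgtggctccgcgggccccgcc
Pdia6, chr12:17266339-17266588, plus strand: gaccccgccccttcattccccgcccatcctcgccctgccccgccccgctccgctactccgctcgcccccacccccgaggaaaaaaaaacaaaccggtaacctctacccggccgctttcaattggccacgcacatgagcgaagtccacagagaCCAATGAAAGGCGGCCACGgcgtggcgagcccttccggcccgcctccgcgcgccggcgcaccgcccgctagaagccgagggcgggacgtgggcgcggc
Hsp90b1 holds 2 matches, 1 on each strand, and the other 3 promoters hold 1 each, all on the strand of the gene.

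The 10 genes with a match differed as follows. Hsp90b1 (0.61), Pdia6 (0.39), Hspa5 (0.38), Syvn1 (0.31), Calr (0.27), Dnajc3 (0.24) and Canx (0.20) had day 5 arrays all above sham. Creld2 (0.16), Ero1b (0.15) and Derl3 (-0.14) overlapped with sham. Calr and Canx encode the lectin chaperones calreticulin and calnexin, and Syvn1 and Derl3 act in the export of misfolded proteins. A match is a stretch of letters and no measure of binding.

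The other lists of the endoplasmic reticulum were less uniform. Their counts at an unadjusted p under 0.05 are read beside 4.21% higher and 4.78% lower of all genes. Of 18 disulfide isomerases and oxidases kept, 3 had an unadjusted p under 0.05 as higher (Tmx3 0.40, Pdia3 0.45, Tmx1 0.26) and 0 as lower, which became 2 without day 5 replicate 3 and 1 without sham replicate 3. Of 29 translocon and signal peptide genes 6 were higher and 2 lower: Ddost, a subunit of the oligosaccharyl transferase, was at 9.27, 9.31 and 9.20 in sham cells and 9.58, 9.62 and 9.65 at day 5, a difference of 0.36 (SE 0.10), while Srp14, of the signal recognition particle, was 0.32 lower (SE 0.10). The translocon counts were 2 and 1 without day 5 replicate 3, and 3 and 1 without sham replicate 3. Of 23 degradation genes 4 were higher and 2 lower, and 2 and 0 without day 5 replicate 3. Herpud1, which recruits substrates for degradation, differed by 0.55 (SE 0.13) and Ufd1, a cofactor of the extraction ATPase, was 0.32 lower (SE 0.11).

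Among 23 sensors of the unfolded protein response and PERK branch targets kept, the median was 0.14, and 0.11 without day 5 replicate 3. At an unadjusted p under 0.05, 5 were higher and 0 lower, beside 4.21% and 4.78% of all genes. Without sham replicate 3 the counts were 4 and 0. Xbp1, the transcription factor that is spliced by the sensor IRE1, was at 8.64, 8.63 and 8.33 in sham cells and at 8.85, 8.87 and 9.02 at day 5, a difference of 0.41 (SE 0.11, adjusted p = 0.379). Chac1 and Sesn2, targets of ATF4, differed by 0.59 (SE 0.21) and 0.52 (SE 0.19). Atf4 itself differed by 0.01 (SE 0.15) and Ddit3 (CHOP) by 0.16 (SE 0.35), both with overlapping groups, and both changed sign under other settings. Of 22 chaperones of the cytosol kept, 0 had an unadjusted p under 0.05 as higher and 2 as lower (Dnajc7 -0.23, Stip1 -0.20), with a median of -0.05. These counts turned to 2 higher and 0 lower without sham replicate 3, with a median of 0.018, and to 0 and 0 without day 5 replicate 3, so no direction is given for that list. The small heat shock proteins Hspb6, Hspb3 and Hspb7 of muscle were 0.18, 0.58 and 0.13 lower, and 1 of the 7 on that list had such a p under either of these settings.

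**Figure D3:**
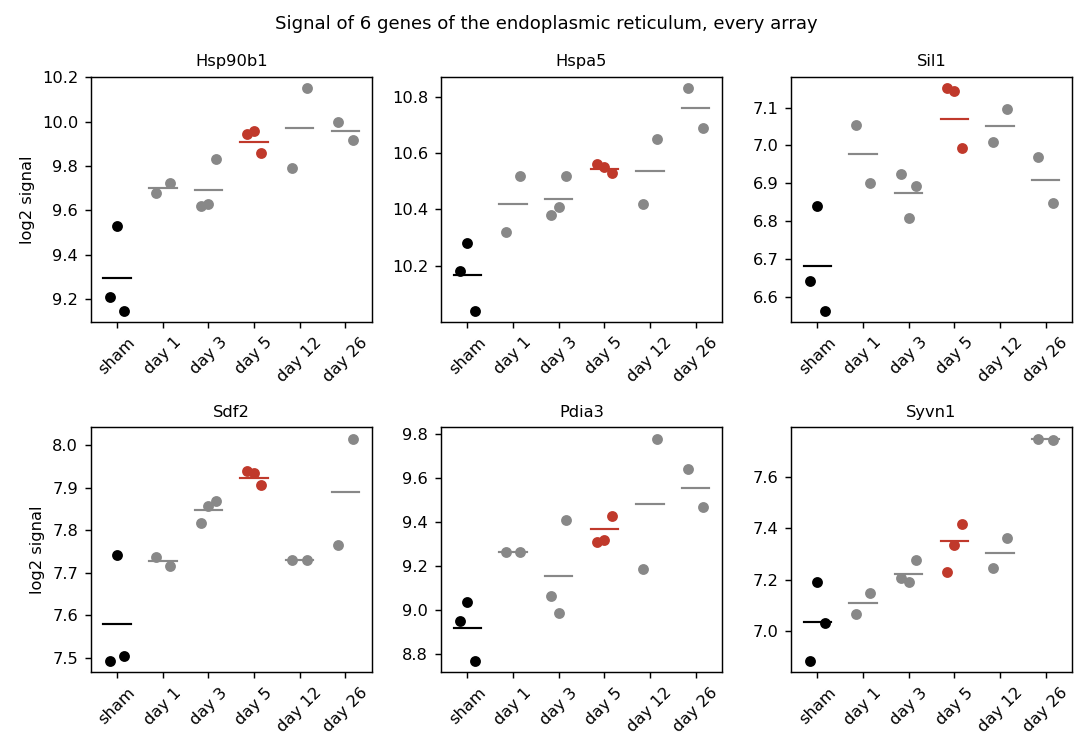
Log2 signal (y axis) of 6 genes of the endoplasmic reticulum in each of the 15 arrays by group (x axis); black points are sham arrays, red points day 5, grey points the other proton days, and lines are group means with day 5 replicates 1 and 2 averaged first. In all 6 panels the day 5 arrays lie above the sham arrays, and the other proton days hold arrays higher than day 5 for Hsp90b1, Hspa5, Sdf2, Pdia3 and Syvn1.

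Genes of the mitochondrial ribosome, the proteasome and energy metabolism lay mostly below sham by small amounts, and none passed the adjusted threshold. All 77 mitochondrial ribosomal protein genes were kept, and 68 were below 0, with a median difference of -0.19. In 14 the unadjusted p was under 0.05 as lower and in 0 as higher, beside 4.78% and 4.21% of all genes. In 43 the day 5 arrays all lay below sham, beside 14.7% of all genes. Mrps21 had the largest difference on that list, at 10.77, 10.71 and 10.77 in sham cells and 9.81, 9.80 and 9.68 at day 5, which is 1.01 lower (SE 0.28, adjusted p = 0.381). Mrpl44 was 0.48 lower (SE 0.12) and Mrpl43 0.50 lower (SE 0.15). The mean of the 77 was 8.24 to 8.42 in sham arrays and 8.14 to 8.18 at day 5, while the other proton days ran from 7.89 to 8.36. Without day 5 replicate 3 the count at an unadjusted p was 8 of 77, and without sham replicate 3 it was also 8.

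Proteasome subunits showed the same side. Of 37 kept, 32 were below 0, and the median was -0.16. At an unadjusted p under 0.05, 10 were lower and 0 higher, beside 4.78% and 4.21% of all genes. Psmb6, a catalytic subunit, was at 9.76, 9.87 and 9.84 in sham cells and 9.49, 9.51 and 9.54 at day 5, or 0.31 lower (SE 0.08), and Psma7 was 0.42 lower (SE 0.12). The counts without day 5 replicate 3 and without sham replicate 3 were 8 and 7 of 37. Of 55 cytosolic ribosomal protein genes, 7 had an unadjusted p under 0.05 as lower and 1 as higher, with a median of -0.07, and without day 5 replicate 3 the counts were 1 and 0. These genes have many near-identical copies, so their probe sets may read several loci.

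The 28 genes of the citric acid cycle and pyruvate entry had a median of -0.09. At an unadjusted p under 0.05, 6 were lower and 1 higher, beside 4.78% and 4.21% of all genes. Fh1, fumarate hydratase, was at 10.46, 10.49 and 10.59 in sham cells and 10.15, 10.16 and 10.24 at day 5, or 0.32 lower (SE 0.07, adjusted p = 0.316), and Suclg1, a subunit of succinyl-CoA ligase, was 0.31 lower (SE 0.07). The higher gene was Pdk4, the kinase that shuts pyruvate out of the cycle, at 10.70, 10.75 and 10.52 in sham cells and 11.11, 11.11 and 11.13 at day 5, a difference of 0.46 (SE 0.12). Pdk4 thus lay on the other side of sham from most of that list. Without sham replicate 3 the count of lower genes was 3 of 28.

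In the respiratory chain, 35 complex I subunits were kept. Of these, 6 had an unadjusted p under 0.05 as lower and 0 as higher, beside 4.78% and 4.21% of all genes. Of 46 subunits of complexes II to V, 7 were lower and 1 higher. Atp5l, a subunit of ATP synthase, was 0.30 lower (SE 0.07, adjusted p = 0.277), with 4 of its 5 probe sets all below sham, and Uqcr11 of complex III was 0.34 higher (SE 0.09). In fatty acid oxidation 7 of 30 were lower and 1 higher, among them the electron carriers Etfa (-0.25) and Etfdh (-0.17). In glycolysis 5 of 18 were lower, with Pgk1 at -0.37 and Tpi1 at -0.21, and 2 were higher, the glucose transporters Slc2a1 (0.36) and Slc2a4 (0.27). Without day 5 replicate 3 the count of lower genes was 0 for complex I, 5 for complexes II to V, 4 for fatty acid oxidation and 5 for glycolysis. Without sham replicate 3 it was 2, 3, 4 and 2.

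Contractile genes were mostly lower by small amounts. The 32 sarcomere and Z-disc genes, all kept, had a median of -0.10. Of these, 9 had an unadjusted p under 0.05 as lower and 0 as higher, beside 4.78% and 4.21% of all genes. Mybphl, kept only through its day 5 signal, was not among the 9. Des, desmin, was at 11.25, 11.29 and 11.26 in sham cells and 11.01, 11.01 and 11.18 at day 5, or 0.17 lower (SE 0.05). Tnnc1, troponin C, was 0.14 lower (SE 0.05) and Csrp3, the Z-disc stress sensor, 0.16 lower (SE 0.06). Among ion channels, Kcnj2, the main channel of the inward rectifier current, was at 7.67, 7.95 and 8.04 in sham cells and 8.41, 8.45 and 8.42 at day 5, or 0.54 higher (SE 0.12, adjusted p = 0.29), while Kcna5 was 0.57 lower (SE 0.19). Hrc, the calcium-binding protein of the sarcoplasmic reticulum, was 0.25 higher (SE 0.07). The natriuretic peptide genes Nppa and Nppb differed by 0.18 (SE 0.40) and -0.11 (SE 0.12) with overlapping groups, and the sign of Nppa turned without day 5 replicate 3 (-0.23). Without sham replicate 3, 3 of the 32 contractile genes were lower at that p.

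**Figure D4:**
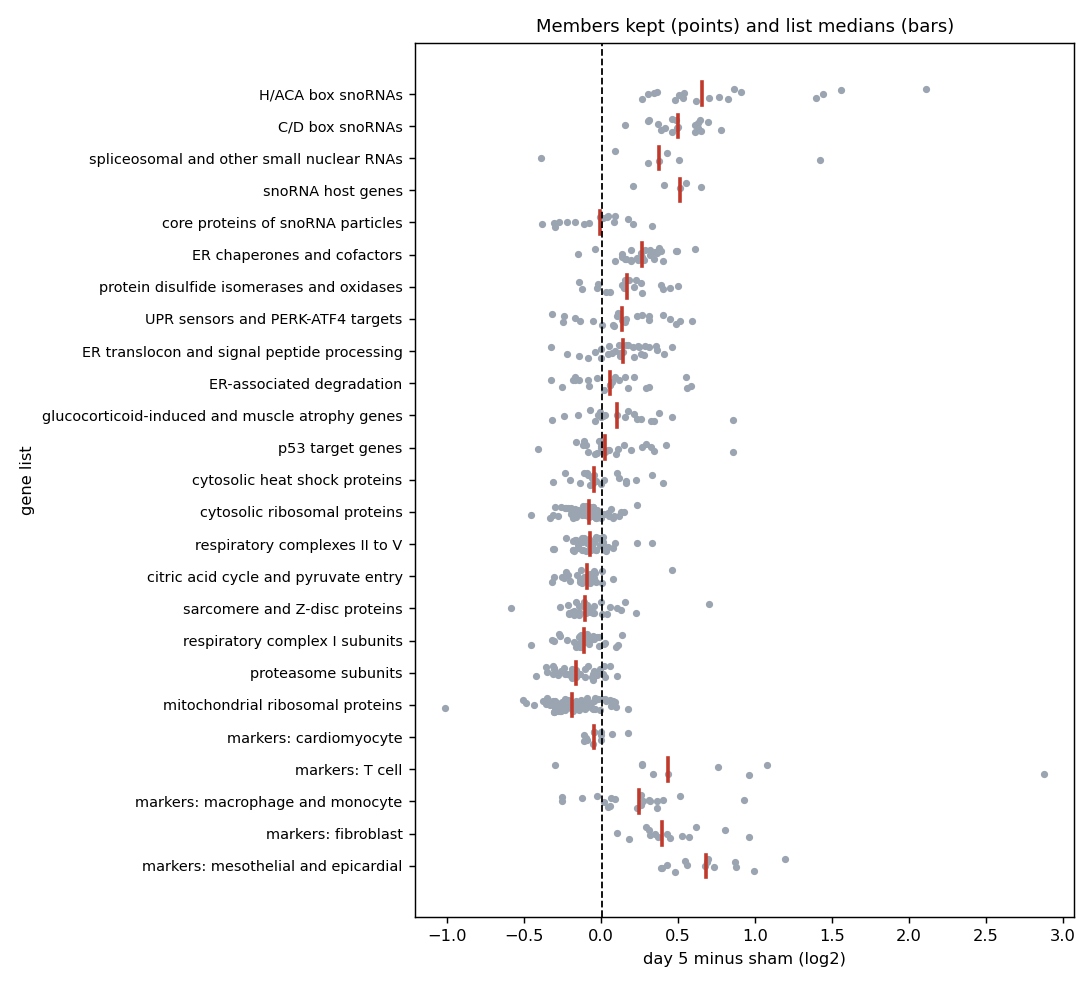
Day 5 minus sham difference (x axis, log2) of the members kept (grey points) of 25 of the 53 gene lists (y axis), with each list's median as a red bar and the median of all 12102 genes as a dashed line. The medians of the H/ACA and C/D snoRNAs lie at 0.66 and 0.50, the chaperones of the endoplasmic reticulum at 0.27, and the mitochondrial ribosomal proteins at -0.19.

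Classical radiation response genes gave few members past an unadjusted p. Of 25 p53 targets kept, 2 had an unadjusted p under 0.05 as higher and 1 as lower, beside 4.21% and 4.78% of all genes, with a median of 0.03. Both counts were 0 without day 5 replicate 3. In 7 of the 25 the day 5 arrays all lay above sham and in 2 below, beside 15.2% and 14.7% of all genes. Trp53inp1, a p53 target that promotes autophagy and cell death, was at 7.04, 7.13 and 7.11 in sham cells. At day 5 it was at 7.81, 7.81 and 8.09, or 0.86 higher (SE 0.26, adjusted p = 0.422). Phlda3, an inhibitor of AKT, was 0.35 higher (SE 0.12). The other proton days also lay above all sham arrays, at 7.27 to 8.43 for Trp53inp1 and 6.58 to 7.15 for Phlda3. Mdm2, the ubiquitin ligase of p53, differed by -0.01 (SE 0.11), with a sign that turned under other settings, and Cdkn1a had no single-symbol probe set. Of 17 double-strand break repair genes kept, 0 had an unadjusted p under 0.05 in either direction and 0 passed in limma. Of 20 cell cycle genes kept, 1 was higher, Pcna, the sliding clamp of DNA synthesis and repair, by 0.29 (SE 0.10); its second probe set differed by 0.91. That count was 2 without day 5 replicate 3 and without sham replicate 3. Mki67 and Aurka were kept only through their day 5 signal.

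Oxidative stress genes gave 3 lower and 1 higher of 28 at an unadjusted p under 0.05, beside 4.78% and 4.21% of all genes. Gsta4, a glutathione transferase for lipid aldehydes, was 0.43 lower (SE 0.10), Gclm, of glutathione synthesis, 0.40 lower (SE 0.14) and Mt2, a metallothionein, 0.38 higher (SE 0.17). The count of higher genes was 0 without day 5 replicate 3 or without sham replicate 3. Interferon-stimulated, STAT3 and NF-kB lists each had 1 gene higher at that p (Iigp1 0.53, Cp 0.60, Cxcl1 0.35), with 1 lower on the interferon list (Ifit2 -0.57). The lists have 22, 18 and 18 genes kept, so these are shares near the 4.21% of all genes, and without day 5 replicate 3 each list had 0 higher. Of 21 glucocorticoid-induced and atrophy genes, 5 were higher and 0 lower: Zbtb16 differed by 0.86 (SE 0.29), Fbxo32 (atrogin-1) by 0.32 (SE 0.12) and Klf9 by 0.26 (SE 0.11). Without day 5 replicate 3, 1 of the 21 was higher and 1 lower, and without sham replicate 3, 3 were higher.

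In a bulk sample, fewer cells of a type and less RNA per cell cannot be told apart, and marker lists of other cell types lay on both sides of sham at day 5. Cd8b1, a chain of the CD8 co-receptor of cytotoxic T cells, was at 4.38, 4.09 and 4.45 in sham cells and 7.28, 7.30 and 7.08 at day 5. The difference was 2.88 (SE 0.55), the groups were far apart, and the adjusted p was 0.174. Cd8a differed by 1.08 (SE 0.29), Cd3e by 0.44 (SE 0.19) and Thy1, which is also on the fibroblast list, by 0.96 (SE 0.33). Cd8a was kept only through its day 5 signal, with a mean of 4.99 over the other 12 arrays, so no count of called genes is given for this list. Of 18 T cell markers on the array, 14 were above 0, beside 10238 of all 19937 genes. In 8 the day 5 arrays all lay above sham, beside 2557 of all 19937. The mean over the 18 was 4.62 to 4.81 in sham arrays and 5.25 to 5.27 at day 5. It was 4.52 to 5.16 on days 1, 3 and 12, and 5.41 and 5.42 on day 26. These means lie near the signal below which genes were not tested. On day 26 Cd8b1 was at 7.66 and 7.16 and Cd8a at 6.53 and 6.04. No defining marker can be called absent from a signal of this kind.

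Mesothelial and epicardial markers (14 of 14 kept) had a median of 0.68, with means of 6.01 to 7.05 in sham arrays and 7.10 to 7.40 at day 5, and 0 with an unadjusted p under 0.05 in either direction. The median was 0.38 without sham replicate 3. Fibroblast markers (14 of 17 kept) had a median of 0.40, with means of 6.77 to 7.05 and 7.21 to 7.31, and macrophage markers (20 of 23 kept) a median of 0.25, which was -0.0034 without sham replicate 3. Extracellular matrix genes (30 of 32 kept) had a median of 0.28 and 0 with an unadjusted p under 0.05. Endothelial markers (18 of 19 kept) had a median of 0.05, which was -0.14 without day 5 replicate 3. Smooth muscle markers (12 of 15 kept) had a median of -0.04, which was 0.11 without sham replicate 3. Neutrophil markers (6 of 15 kept) had a median of -0.16, which was 0.047 without sham replicate 2. Erythroid and platelet markers (5 of 7 kept) had a median of -0.62, with 5 of 5 below 0, and it ran from -1.05 without sham replicate 1 to -0.28 without sham replicate 2. Ppbp, a platelet chemokine, was at 8.17, 8.39 and 6.07 in sham cells and 7.09, 7.01 and 4.98 at day 5, or 1.53 lower (SE 0.67) with overlapping groups. Atrial markers (9 of 10 kept) had a median of 0.20, with 7 above 0 and 2 below. Their means were 6.44 to 6.99 in sham arrays and 7.21 to 7.65 at day 5. The other proton days ran from 6.46 to 8.11. Myl7, the atrial regulatory light chain, was at 7.20, 5.72 and 6.72 in sham cells. At day 5 Myl7 was at 7.75, 7.73 and 8.55, a difference of 1.60 (SE 0.63). The part of these cells in the results on snoRNAs, chaperones and metabolism was not tested.

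Other genes near the threshold were spread over many functions. Pde7a, a phosphodiesterase of cAMP, was at 7.80, 7.77 and 7.71 in sham cells and 8.18, 8.20 and 8.38 at day 5, or 0.53 higher (SE 0.09, adjusted p = 0.0912). Klhl38, a muscle gene of the kelch family, was 0.66 higher (SE 0.12, adjusted p = 0.144). In the lower direction Ehd4, of endosomal recycling, was at 10.23, 10.14 and 10.27 in sham cells and 9.76, 9.76 and 9.82 at day 5, or 0.43 lower (SE 0.07, adjusted p = 0.0828). Supv3l1, the RNA helicase of mitochondrial RNA decay, was 0.56 lower (SE 0.10, adjusted p = 0.12).

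Further lower genes with no overlap were Adh5 (0.43 lower), an enzyme that removes formaldehyde and nitrosothiols, Eef1b2 (0.39), a translation elongation factor, Rab35 (0.48), a small GTPase, Capza1 (0.47), which caps actin filaments, Fzd6 (0.46), a Wnt receptor, and Lancl2 (0.44). Their adjusted p lay between 0.277 and 0.354. The second probe set of Capza1 differed by 0.02 with overlapping groups. Malat1, a nuclear long non-coding RNA chosen after its values were seen, was 0.41 higher (SE 0.15, adjusted p = 0.474), with sham replicate 3 at 10.88 inside the day 5 range of 10.84 to 10.95.

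Day 5 was next set against the other proton days, a contrast that uses no sham array. Of 12102 genes 0 passed in limma (0.0%), and 435 had an unadjusted p under 0.05 (3.59%). With array weights 2 genes passed (Arntl and Rnu12), and with all 15 arrays as separate samples 6 did (these, Nfil3, Dbp, Scarna13 and Snora3). The 5 smallest p belonged to 3 clock genes and to Rnu12 and Scarna13. Scarna13 was 0.83 higher at day 5 than the mean of the other proton groups (SE 0.17), and Rnu12 0.95 higher (SE 0.17). Snora3 was 1.24, Snora16a 0.61, Snora73b 0.72 and Tmem109 0.32 higher. The chaperones differed little from the other days, with Hsp90b1 at 0.075 and Hspa5 at 0.0022.

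Arntl (Bmal1), the core activator of the circadian clock, had the smallest p of this contrast. It was at 6.33, 6.30 and 6.09 at day 5, against 6.52 to 7.27 on the other proton days and 6.58 to 6.76 in sham cells. It was 0.76 lower at day 5 than on the other proton days (SE 0.11, unadjusted p = 1.95e-05, adjusted p = 0.237) and did not overlap with them. Nfil3, a repressor of clock output genes, was 0.66 lower (SE 0.12), and Dbp, an output gene whose rhythm runs opposite to that of Arntl, was 0.56 higher (SE 0.105). Dbp was at 9.22, 9.18 and 9.04 at day 5 and at 8.16 to 9.07 on the other days. Of 19 clock genes kept, 15 were above 0 against sham and the median was 0.11. At an unadjusted p under 0.05, 2 were lower (Arntl and Nfil3) and 0 higher, beside 4.78% and 4.21% of all genes. Without sham replicate 3 the counts were 1 lower and 3 higher, and without day 5 replicate 3 they were 3 lower and 1 higher. The labels used here give no hour of collection, and its part in the result was not tested.

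**Figure D5:**
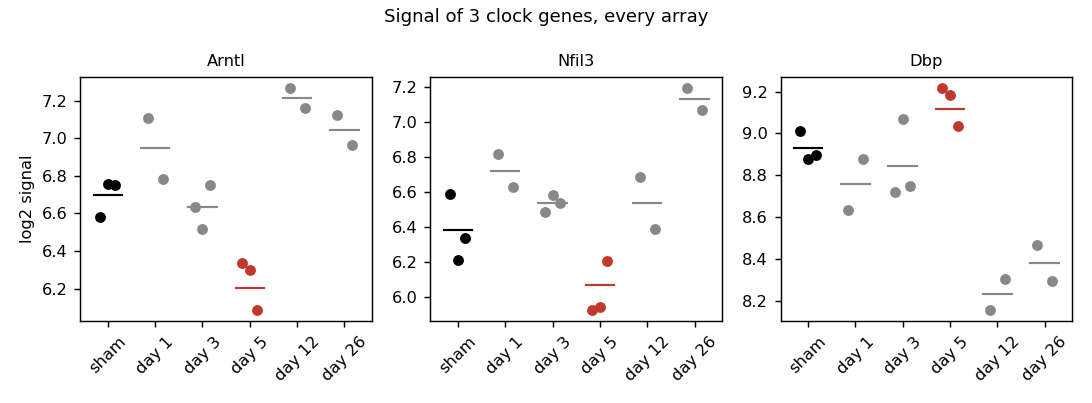
Log2 signal (y axis) of the clock genes Arntl, Nfil3 and Dbp in each of the 15 arrays by group (x axis); black points are sham arrays, red points day 5, grey points the other proton days, and lines are group means with day 5 replicates 1 and 2 averaged first. Arntl and Nfil3 are lowest at day 5, and Dbp is at 9.04 to 9.22 there, with sham at 8.88 to 9.01.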

How the data were processed

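The authors deposited 1 table of log2 signals for 34760 probe sets on 15 Affymetrix arrays. Per the submitters' processing notes it was made with MAS5; version, background correction and normalization are not given in the sources used here. MAS5 signals carry no depth, so the number of arrays limits the precision. Values were used as deposited. Probe sets were named through the platform annotation: 21640 had 1 symbol, 1321 several and 11799 none; 21553 matched RefSeq (GRCm38.p6). The probe set with the highest mean stood for each gene, and genes whose mean exceeded the median of all probe sets (5.00) were kept.

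Groups followed the titles. Limma 3.58.1 in R 4.3.3 (lmFit, eBayes with trend) was fitted to 14 samples in 6 groups (8 residual degrees of freedom, 12.1 moderated), with Benjamini-Hochberg adjustment over all 12102 genes at 0.05. The procedure was tested on simulated data. Tables were made with Python 3.11.15, numpy 2.4.6 and pandas 2.3.3. Sequences are from RefSeq.

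Genes were named by rule: those that passed, the 12 smallest p in each direction without overlap, up to 4 members of each of 53 lists (8 for small RNAs), hosts of small RNAs and 15 fixed genes. The members and lists were chosen with earlier results of these data known. Alternatives covered scaling, filter, probe sets, variance model, array weights, samples fitted, sham, replicate block and each array left out; list counts without day 5 replicate 3, without sham replicate 3 and with 15 arrays were added after the data were seen. Replicate numbers were not used as pairs in the main fit, and whether they pair the samples could not be settled.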

Additional observations from a re-analysis of the deposited data

Results flagged for a closer look

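The following genes are among the 181 named ones, which were chosen partly by their day 5 values. They had all 3 day 5 arrays on 1 side of the 3 sham arrays. Every array of another proton day lay on the other side. Of all 12102 genes, 15.2% had day 5 arrays all above sham and 14.7% all below. The share of all genes that also crossed sham on another day is not given here. The day-by-day differences were not tested; against the mean of the other proton days none passed in limma.

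Among them were the clock genes Arntl and Nfil3 and the output gene Dbp. Arntl was -0.50 from sham at day 5, and 0.25, 0.52 and 0.35 at days 1, 12 and 26. Nfil3 was -0.31 at day 5, and 0.34 and 0.75 at days 1 and 26. Dbp was 0.19 at day 5, and -0.70 and -0.55 at days 12 and 26.

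Among RNAs of the nucleus, Rpph1 was 0.30 at day 5 and -0.18 at day 1, and the snoRNA host Snhg5 was 0.41 at day 5 and -0.24 at day 12. Of protein handling genes, the isomerase Tmx1 was 0.26 at day 5 and -0.23 at day 26, Srp14 was -0.32 at day 5 and 0.12 at day 1, and the cochaperone Stip1 was -0.20 at day 5 and 0.18 at day 26. Uqcrc1, of complex III, was -0.18 at day 5 and 0.05 at day 26. Lcn2, an iron-binding protein of neutrophils and stressed tissue, was -0.55 at day 5 and 0.86 at day 1.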

How the results depend on the processing

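The count of genes that passed at day 5 against sham was 6 in the main fit, with quantile normalization and with no filter. It was 9 with a filter at the 75th percentile and 4 with equal array medians. With the mean of probe sets or a robust variance it was 5. With sham of day 1 it was also 5, but these were 3 of the 6 genes with Malat1 and Mir665. That setting is the same fit as the one without sham replicate 3. The count was 1 with no variance trend and 0 with no shared spread (1102 at an unadjusted p under 0.05). With only the groups compared it was 11, among them 5 of the 6 genes but not Tmem109. Array weights gave 47, and 15 arrays as separate samples gave 32. With the replicate block the count was 0 (577 at an unadjusted p, smallest adjusted p 0.0563). Deviations of same-numbered samples from their group means correlated with a median of -0.0832 over 26 pairs, 9 above 0.1. The values ran from -0.722 to 0.457. In a group of 2 samples the deviations mirror each other, so these values cannot settle whether the numbers pair the samples. Leaving out 1 array gave 0 to 7 genes; the cause was not tested, beyond the smaller number of samples. All 6 genes kept a positive sign in every setting. Against the other proton days the count was 0, but 2 with array weights and 6 with 15 arrays; leaving out 1 array gave 0 throughout.

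Signs turned in 15 of 5025 values of named genes (181 genes), each for a gene that did not pass: with the replicate block Cd79b (-0.18), Cd163 (-0.10), Pecam1 (-0.13), Nppa (-0.16) and Rps3 (-0.018); with 15 arrays Mdm2 (0.029); with equal medians Atf4 (-0.041); and with array weights Atf4 (-0.036). Leaving out 1 array turned 5 of them: without day 5 replicate 3 Mdm2 and Nppa, without sham replicate 1 Mdm2, and without sham replicate 2 Mdm2, Ddit3, Atf4 and Ciart. Their ranges over the left-out arrays were -0.086 to 0.11 for Mdm2, -0.15 to 0.39 for Ddit3, -0.093 to 0.089 for Atf4, -0.23 to 0.23 for Nppa and -0.048 to 0.48 for Ciart. Causes were not tested. Day 5 rests on 2 distinct samples and borrows its sham from other days.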
